A study of Mus musculus with 10 samples.

Results

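The comparison described here sets mouse embryonic testis at stage E16.5 (E for embryonic day) against that at E14.5, across all genes. Its members are the 2 arrays titled E16.5 and the 2 titled E14.5, which are 4 of the 10 arrays of the series. The series measured total RNA of embryonic testis on Affymetrix Mouse430_2 arrays, 2 for each of 5 stages, which also include E11.5, E12.5 and E18.5. Per the series' design text, each array has a testis preparation of its own, so the p-values reflect the spread between preparations. Neither group is labelled with a treatment or a genetic change, and both are fetal testis that differ in age alone as far as the labels go. The sources used here do not give the strain, how many embryos went into a preparation, or whether the mesonephros was taken off.

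In the fetal testis, germ cells lie inside cords formed by Sertoli cells, and fetal Leydig cells between the cords make androgens. Male germ cells that reach the gonad still express the transcription factors that keep embryonic stem cells pluripotent. They later stop dividing, become prospermatogonia, silence those factors and take on a programme of de novo DNA methylation and transposon silencing, in which Piwi proteins are guided by small piRNAs. The fetal circulation changes in the same period, as red cells from the yolk sac, which carry embryonic globins, give way to red cells from the liver.

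Values are linear intensities, called signals here, scaled by the depositors to a common mean on each array. Changes are differences of log2(signal + 16), E16.5 minus E14.5, a scale on which dim genes change less than their signals do. A gene is said to have risen or fallen where its adjusted p (limma on all 10 arrays, Benjamini-Hochberg over 10916 tested genes, two-sided) was under 0.05. Genes with a mean below a signal of 49.1 were not tested. RNA was taken from whole tissue, so fewer cells of a type and less RNA per cell cannot be told apart.

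Between E14.5 and E16.5, 1181 genes changed, or 10.8% of those tested. Of these, 840 rose (7.70%) and 341 fell (3.12%), with 289 of the rises and 99 of the falls at least 2-fold. The median change of all tested genes was 0.05. The largest fall was that of Hbb-y, an embryonic beta-like globin, at -5.45, and the largest rise that of Tdrd9, a germ cell RNA helicase, at 3.20. Each of the 3 other successive steps had fewer calls: 357 genes (3.27%) in E12.5 against E11.5, 574 (5.26%) in E14.5 against E12.5 and 2 (0.0183%) in E18.5 against E16.5, where 538 genes had an unadjusted p under 0.05. The rank of E16.5 against E14.5 as the step with the most calls held in 20 of 22 alternative settings. It did not hold without the second E16.5 array, when 168 genes changed in E16.5 against E14.5 and 411 in E14.5 against E12.5, or with the actin signal ratio as a covariate, when the counts were 385 and 655. Without the first E14.5 array the count was 353, beside 345 in E12.5 against E11.5, and without the first E16.5 array it was 506.

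**Figure D1:**
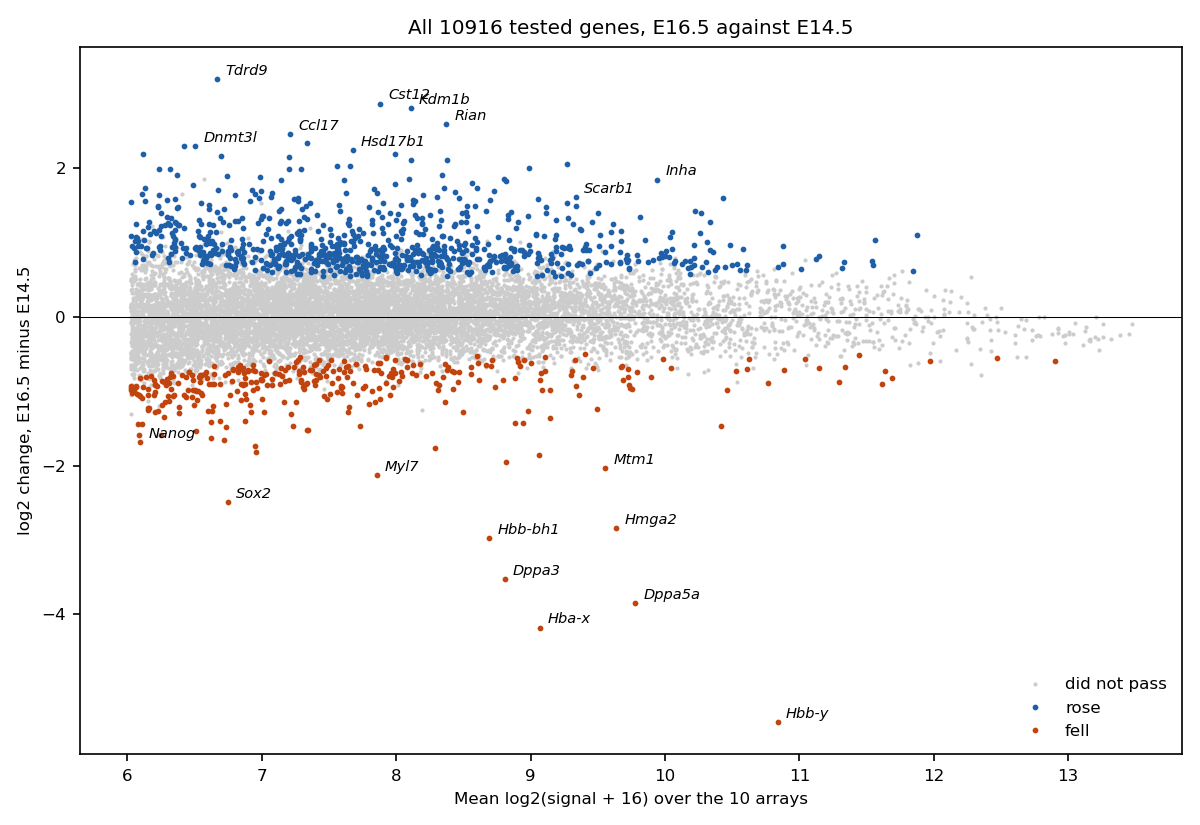
Change in log2(signal + 16), E16.5 minus E14.5 (vertical axis), against the mean log2(signal + 16) over the 10 arrays (horizontal axis) for the 10916 tested genes. The 840 genes that rose are blue, the 341 that fell orange-red and the others grey; Hbb-y at -5.45, Hba-x at -4.18, Dppa5a at -3.85 and Dppa3 at -3.53 lie farthest below the rest.

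The split between rises and falls depended on how the arrays were scaled. With each array centred on its median, the median change of all tested genes was 0.29, and 1668 genes rose while 114 fell. The median signal was 42.9 and 40.4 on the E16.5 arrays, against 57.7 and 47.1 on the E14.5 arrays. The actin probe sets at the 3′ end were brighter than those at the 5′ end by a ratio of 2.61 and 2.60 at E16.5, against 1.64 and 2.50 at E14.5, so the first E14.5 array stood apart on both measures. All E14.5 arrays were scanned on a different day from all E16.5 arrays, and with different fluidics modules. Scan day, module and stage thus cannot be told apart in this step. No other stage shared the scan day of E14.5, so scan day and stage cannot be told apart either where this step is compared with a neighbouring step. The E12.5 and E16.5 arrays were scanned on the same day, and between them 2954 genes changed (27.1%).

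The preparations carried the markers of testis. Cst9, a cystatin of early Sertoli cells, had signals of 2144 and 1905 at E16.5, against 2377 and 2122 at E14.5. Ddx4, a germ cell RNA helicase, had 1041 and 828 at E16.5, against 605 and 839.7 at E14.5. Cyp17a1, which makes androgen precursors in fetal Leydig cells, had 6464 and 5849 at E16.5, against 3132 and 3519.6 at E14.5. None of these markers passed the test (adjusted p = 0.575, 0.37 and 0.186), although the sign for Cst9, -0.15, turned to 0.09 with median centring. The Cyp17a1 signals were higher on both E16.5 arrays, and its widely differing E12.5 arrays enter the spread in its test. Each marker is 1 gene of a longer list, and other members of the Sertoli (11 of 27), prospermatogonia (9 of 17) and Leydig (8 of 13) lists rose. The markers thus show that these cell types were present and do not measure their share.

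Pluripotency genes fell. Of 28 listed pluripotency factors, 26 had a probe set and 20 were tested, and 10 of these fell (beside 3.12% of all tested genes) while 1 rose. Their median change was -0.75, beside 0.05 over all tested genes. The falls were those of Dppa5a, Dppa3, Sox2, Nanog, Tdrd12, Lin28a, Gdf3, Zfp42, L1td1 and Tcl1. Leaving out single arrays gave between 6 falls, without the second E16.5 array, and 11. With a filter at the 60th percentile 2 falls were counted, those of Dppa5a and Dppa3, since the other 8 genes were then not tested.

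Dppa5a, a KH-domain protein of pluripotent cells, had signals of 191 and 125 at E16.5, against 2232 and 2704 at E14.5 (change -3.85, SE 0.22, adjusted p = 4.59e-07). Dppa3, also known as Stella, which guards DNA methylation in the egg and early embryo and marks primordial germ cells, had 201 and 108 at E16.5, against 1814 and 1942 at E14.5 (change -3.53, SE 0.27, adjusted p = 5.17e-06). Up to E14.5 the signals of Dppa3 were higher at each stage, while those of Dppa5a were highest at E12.5. At the other stages Dppa5a had 2768 and 2296 (E11.5), 4483 and 3295 (E12.5) and 106 and 112 (E18.5), and Dppa3 had 734 and 570.4 (E11.5), 1294 and 899.9 (E12.5) and 79.4 and 50.7 (E18.5). For both genes the step to E16.5 differed from the step before it, by -3.21 for Dppa5a (adjusted p = 0.000972) and by -4.32 for Dppa3 (adjusted p = 0.000498). It also differed from the step after it, by -3.40 (adjusted p = 0.00179) and -2.49 (adjusted p = 0.0249).

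Sox2 and Nanog, transcription factors at the centre of the pluripotency network, fell to signals below the mean of 49.1 that a gene needed to be tested. Sox2 had 17.1 and 11.2 at E16.5, against 133 and 175 at E14.5 (change -2.49, SE 0.24, adjusted p = 5.15e-05). Nanog had 17.8 and 13.1 at E16.5, against 77.9 and 92.5 at E14.5 (change -1.69, SE 0.25, adjusted p = 0.00133). With a pseudocount of 1 the changes were larger, at -3.37 for Sox2 and -2.40 for Nanog, because both are low at E16.5. Sox2 stayed low at E18.5, with 20.5 and 23.9, and its step to E16.5 differed from the step to E18.5 by -2.84 (adjusted p = 0.00718). For Nanog that difference was -1.66 (adjusted p = 0.104).

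The other falls in the list were smaller. Zfp42, a zinc finger protein also known as Rex1, had 39.4 and 34.9 at E16.5, against 97.6 and 112 at E14.5 (change -1.18, adjusted p = 0.00625). Lin28a, an RNA-binding protein that blocks let-7 maturation, had 31.7 and 41.4 at E16.5, against 97.1 and 124 at E14.5 (change -1.26, adjusted p = 0.00594). Gdf3, a TGF-beta family ligand, had 34.1 and 33.0 at E16.5, against 107 and 96.1 at E14.5 (change -1.25, adjusted p = 0.00867). In each of these genes both E16.5 arrays lay below both E14.5 arrays, as they did for 25.6% of all tested genes. L1td1, an RNA-binding protein of embryonic stem cells, had 28.6 and 31.8 at E16.5, against 81.8 and 95.5 at E14.5 (change -1.18, adjusted p = 0.00192), and it had already fallen by 1.60 between E12.5 and E14.5 (adjusted p = 0.00019). Tdrd12 had 52.2 and 45.4 at E16.5, against 141 and 143 at E14.5 (change -1.29, adjusted p = 0.00424); although listed with pluripotency genes, it is known as a factor of piRNA production. Tcl1, a cofactor of the kinase Akt, had 47.5 and 47.7 at E16.5, against 84.8 and 102 at E14.5 (change -0.78, adjusted p = 0.0232), a call lost in 8 of 21 alternative settings. Zfp42, Lin28a, Gdf3 and Tdrd12 each lost their call when 1 array of these stages was left out, and Gdf3 did so for either of 2 arrays.

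Other members of the list did not pass the test. Pou5f1, which encodes Oct4, had 122 and 119 at E16.5, against 197 and 219.9 at E14.5 (change -0.72, SE 0.25, adjusted p = 0.0786). Its E16.5 arrays lay below its E14.5 arrays, and it passed in 4 of 22 alternative settings. Against E12.5, within one scan day, its change was -0.87 (adjusted p = 0.0185). Utf1, a chromatin protein of stem cells and germ cells, had 302 and 355 at E16.5, against 285 and 382 at E14.5. Dppa4 had 1091 and 712 at E16.5, against 862 and 973 at E14.5, and Sall4, a zinc finger factor of germ cells, had 194 and 236, against 97.6 and 212. The arrays of the groups overlapped for all 3 genes. The signs for Utf1 (-0.01) and Dppa4 (-0.05) turned with median centring and with the actin covariate. Klf4, a pluripotency factor that is also an immediate early gene, was the member that rose, with 172 and 226 at E16.5, against 77.6 and 66.3 at E14.5 (change 1.28, adjusted p = 0.00387), a call lost without the second E16.5 array.

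**Figure D2:**
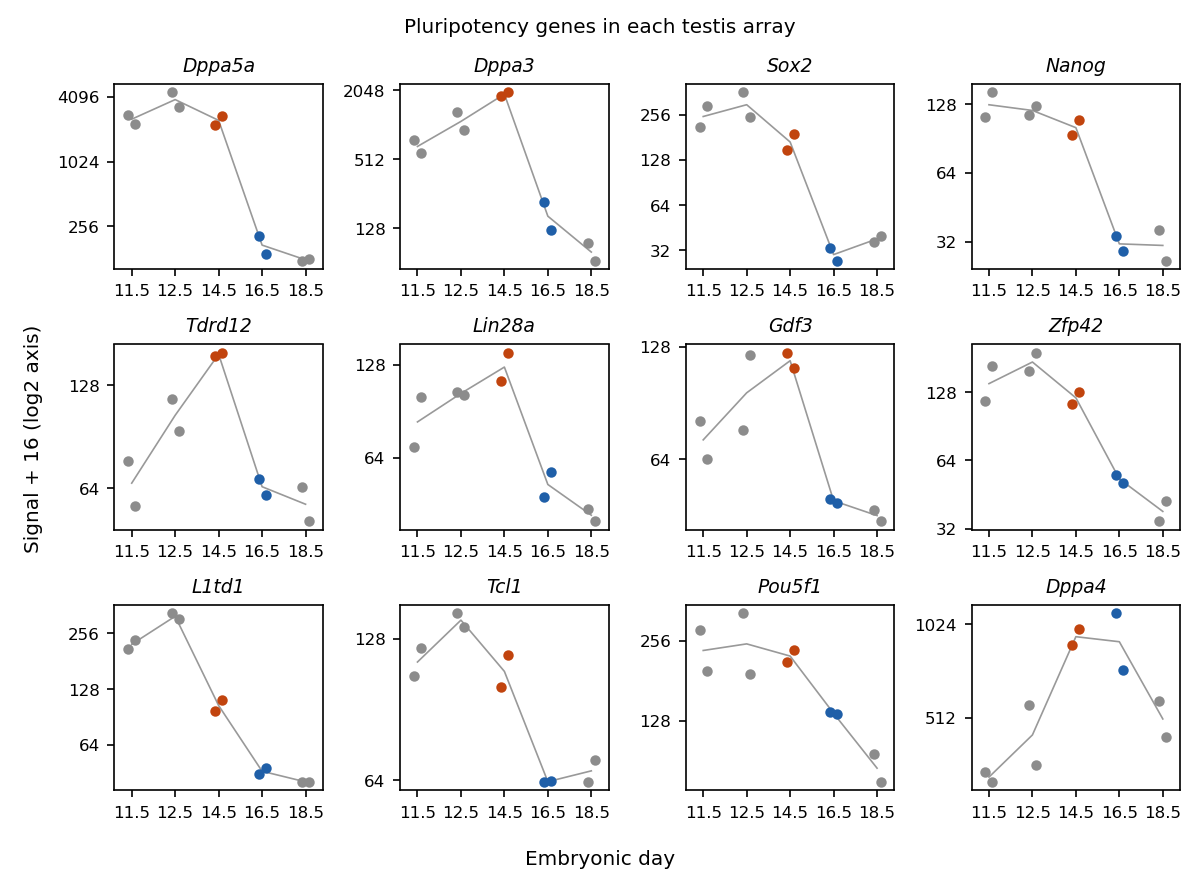
Signal + 16 on a log2 axis for 12 pluripotency genes in each array, against embryonic day; E16.5 arrays are blue, E14.5 arrays orange-red, the other stages grey, and the line joins the means of the stages on the log2 scale. Dppa5a, Dppa3, Sox2 and Nanog drop sharply at E16.5, Pou5f1 less (-0.72), and the E16.5 arrays of Dppa4 lie on both sides of its E14.5 arrays.

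The E16.5 arrays were also compared with the E12.5 arrays, which were scanned on the same day but on other fluidics modules, so module and stage cannot be told apart there either. In that comparison 11 members fell, beside 10.2% of all tested genes. The change was -4.50 for Dppa5a, -2.74 for Dppa3, -3.32 for Sox2 and -1.94 for Nanog. Each of these passed the test, with an adjusted p of 9.18e-09 for Dppa5a, 8.02e-06 for Dppa3, 6.3e-07 for Sox2 and 9.56e-05 for Nanog.

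Promoter windows from RefSeq (assembly GRCm38.p6, 250 bases before to 50 after the annotated start) were found for 7 of the 10 pluripotency genes that fell. Those of Nanog and Zfp42 are printed because they hold TTTGCAT, core letters of the octamer that Oct4 binds. Nanog is at chr6:122707239-122707538 on the plus strand, and Zfp42 at chr8:43306960-43307259 on the minus strand; capitals mark TTTGCAT on either strand.
Nanog: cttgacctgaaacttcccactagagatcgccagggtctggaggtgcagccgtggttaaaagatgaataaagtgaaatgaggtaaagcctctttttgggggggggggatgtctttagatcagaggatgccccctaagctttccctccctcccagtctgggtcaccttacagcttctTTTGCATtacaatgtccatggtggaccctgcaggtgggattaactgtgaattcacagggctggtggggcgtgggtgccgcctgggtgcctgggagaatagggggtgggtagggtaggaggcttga
Zfp42: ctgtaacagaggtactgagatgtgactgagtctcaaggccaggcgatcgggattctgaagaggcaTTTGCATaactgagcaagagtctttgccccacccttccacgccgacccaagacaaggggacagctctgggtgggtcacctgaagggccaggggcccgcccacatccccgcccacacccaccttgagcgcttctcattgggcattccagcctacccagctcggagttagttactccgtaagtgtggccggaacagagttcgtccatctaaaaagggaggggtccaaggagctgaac
TTTGCAT was found for 3 of the 7 genes (Nanog, Sox2 and Zfp42), beside 5.24% of all genes with a window and 3.99% of tested genes. By windows, of which a gene can have several, these were 4 of 9, beside 4.63% of all 32851 windows and 3.23% of those of tested genes. The search began with the longer ATTTGCAT, which matched Zfp42 alone among the 7 and 1.97% of all genes, and the shorter letters were then chosen because they took in Nanog and Sox2. In all, 7 motifs were searched on both strands after the changes were known: TTTGCAT and the longer ATTTGCAT (which holds it), the E-box CACGTG, the TATA box TATAAA, the CCAAT box, the SF-1 site AAGGTCA and the SOX site ACAAAG. Among the 7 pluripotency genes CCAAT matched 2 (Sox2 and Zfp42), ACAAAG matched 1 (Sox2), and the E-box, TATA box and SF-1 letters matched 0. These matches describe letters in the windows and give no support to a role of any factor.

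Some genes of embryonic timing fell. Of 12 tested heterochronic genes, which mark embryonic against later tissue, 4 fell (33.3%, beside 3.12% of all tested genes) and 0 rose, with a median change of -0.30. One of the 4 was Lin28a, already counted among the pluripotency factors, and the others were Hmga2, Sox11 and Igf2bp1. The count was 2 without the first E14.5 array, when Sox11 and Igf2bp1 lost their calls, and 2 without the first E16.5 array, when Lin28a and Igf2bp1 did. Hmga2, an architectural chromatin protein of embryonic cells, had 176 and 139 at E16.5, against 1189 and 1261 at E14.5 (change -2.84, SE 0.18, adjusted p = 1.23e-06). It stood at 4286 and 5021 at E11.5 and 3836 and 3257 at E12.5, so its signal was lower at each later stage, down to 84.2 and 65.6 at E18.5. The other Hmga2 probe sets gave changes of -3.98, -3.28 and -1.12. Sox11, a transcription factor of embryonic progenitors, had 63.9 and 78.1 at E16.5, against 315 and 244 at E14.5 (change -1.76, adjusted p = 0.00499). The other Sox11 probe sets gave smaller falls, of -0.42, -0.50, -0.72, -1.14 and -1.20. Igf2bp1, an embryonic mRNA-binding protein, had 72.6 and 87.2 at E16.5, against 138 and 149 at E14.5 (change -0.73, adjusted p = 0.0424), a call lost in 12 of 22 alternative settings. Its relative Igf2bp3 did not pass, with 327 and 341 at E16.5, against 463 and 428 at E14.5.

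Nodal, a TGF-beta ligand active in male germ cells, had 41.6 and 51.8 at E16.5, against 124 and 78.4 at E14.5 (change -0.88, adjusted p = 0.0413). Lefty1, a target and inhibitor of Nodal signalling, had 56.7 and 37.6 at E16.5, against 79.3 and 99.2 at E14.5 (change -0.75, adjusted p = 0.0467). Both calls were close to the threshold, and were lost in 10 of 20 settings for Nodal and 13 of 21 for Lefty1. With Gdf3, also a listed pluripotency factor, they were the 3 of 11 tested members of the Nodal and Lefty list that fell (27.3%, beside 3.12% of all tested genes). The count was 0 without the first E14.5 or the second E16.5 array, and 1 without the first E16.5 array or either E12.5 array. Of 12 tested primordial germ cell genes, 2 fell (16.7%, beside 3.12% of all tested genes), Dppa3 and Ifitm1, an interferon-induced membrane protein. Ifitm1 had 441 and 537 at E16.5, against 1102 and 1704 at E14.5 (change -1.46, adjusted p = 0.0013). The median change of that list was 0.17, and its other 10 tested genes did not pass.

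Embryonic globins fell, and Hbb-y and Hba-x had the largest falls of all tested genes. Hbb-y had 246 and 184 at E16.5, against 8739.8 and 11349.6 at E14.5 (change -5.45, SE 0.31, adjusted p = 4.59e-07). Hba-x, an embryonic alpha-like globin also called zeta, had 34.6 and 39.0 at E16.5, against 785 and 1125 at E14.5 (change -4.18, SE 0.29, adjusted p = 2.92e-06). Hbb-bh1, another embryonic beta-like globin, had 27.0 and 23.4 at E16.5, against 281 and 336 at E14.5 (change -2.97, SE 0.27, adjusted p = 2.87e-05). All 3 listed embryonic globins thus fell. They differed in when: the step to E14.5 was -0.25 for Hbb-y, -2.25 for Hba-x and -3.90 for Hbb-bh1, and the step to E16.5 differed from it by -5.20 for Hbb-y (adjusted p = 0.000339), by -1.93 for Hba-x (adjusted p = 0.0929) and by 0.93 for Hbb-bh1 (adjusted p = 0.327). The Hbb-y probe set can also bind near-identical globins, and its 2 other probe sets gave -5.45 and -6.72.

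Later red cell genes did not move together. Alas2, the first enzyme of haem synthesis in red cells, rose, with 576 and 591 at E16.5, against 264 and 194 at E14.5 (change 1.30, adjusted p = 0.00142). Car2, a carbonic anhydrase, fell (change -0.89, adjusted p = 0.0182), a call lost without the first E14.5 or the second E16.5 array. Hbb-b2, an adult beta globin, had 1024 and 1014 at E16.5, against 548 and 747 at E14.5 (change 0.66, adjusted p = 0.0796), but its probe set can bind other globins and its other probe set gave -0.29. Signals summed over the listed later red cell genes were 2120.4 and 2019.8 at E16.5, against 1445.8 and 1654.9 at E14.5. The part of blood content in the globin changes was not tested.

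Genes of the prospermatogonium and the piRNA pathway rose. Of 25 listed, 21 had a probe set and 17 were tested, and 9 of these rose (52.9%, beside 7.70% of all tested genes) while 0 fell, with a median change of 0.74. The 9 were Tdrd9, Piwil4, Piwil2, Tdrd7, Mael, Morc1, Mov10l1, Ddx25 and Slc25a31. Tdrd12, a factor of piRNA production that fell (change -1.29), was listed with the pluripotency factors and is not in these counts. Leaving out single arrays gave between 4 rises, without the first array of either stage, and 9, with 5 without the second E16.5 array. Signals summed over the list were 11513 and 9385.8 at E16.5, against 6115.7 and 7278.2 at E14.5.

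Tdrd9, a helicase that works with Piwi proteins to silence transposons in male germ cells, had 606 and 577 at E16.5, against 56.4 and 44.7 at E14.5 (change 3.20, SE 0.20, adjusted p = 8.99e-07). It was 9.16-fold higher on the fitted scale, and had 3.1 and 4.2 at E12.5. Piwil4, the nuclear Piwi protein Miwi2, had 456 and 435 at E16.5, against 87.6 and 114 at E14.5 (change 1.99, SE 0.27, adjusted p = 0.000809). Piwil2, its cytoplasmic partner Mili, had 463 and 471 at E16.5, against 136 and 169 at E14.5 (change 1.53, SE 0.17, adjusted p = 0.000173). In these 3 genes both E16.5 arrays were above both E14.5 arrays, as they were in 33.4% of all tested genes. Piwil4 rests on a probe set open to cross-hybridisation, and a dim probe set of its own gave 1.47. In E18.5 the signals were lower again, at 365 and 367 for Tdrd9, 209.9 and 115 for Piwil4 and 229 and 257 for Piwil2. None of those later decreases passed the test, while the step to E16.5 differed from the step to E18.5 by 3.86 for Tdrd9 (adjusted p = 0.00026), 3.41 for Piwil4 (adjusted p = 0.00524) and 2.43 for Piwil2 (adjusted p = 0.00256).

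Mael, a germ granule protein of transposon silencing, had 1991 and 1546 at E16.5, against 629.9 and 873 at E14.5 (change 1.22, adjusted p = 0.00867). Mov10l1, the helicase that feeds piRNA precursors into processing, had 308 and 312 at E16.5, against 155 and 131 at E14.5 (change 1.04, adjusted p = 0.00577). Tdrd7, a tudor domain protein of germ granules, had 261 and 231 at E16.5, against 93.3 and 97.6 at E14.5 (change 1.23, adjusted p = 0.0177). Morc1, a chromatin ATPase needed for transposon silencing in male germ cells, had 683 and 394 at E16.5, against 184 and 275 at E14.5 (change 1.15, adjusted p = 0.0258). The rises of Ddx25, an RNA helicase, and Slc25a31, a germ cell ADP and ATP carrier, were 0.77 and 0.74 (adjusted p = 0.0142 and 0.0349). Single arrays decided several of these calls: Mael lost its call without the first array of either stage, Mov10l1 without the second E16.5 array, Morc1 without the first array of either stage, and Tdrd7 and Ddx25 without any one of the 4 arrays. Slc25a31 lost it without the first E14.5 array or either E16.5 array.

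Members that did not pass included broad germ cell genes. Dazl, a regulator of germ cell mRNAs, had 959 and 771 at E16.5, against 1302 and 1504 at E14.5 (change -0.69, adjusted p = 0.0771), and Ddx4 had a change of 0.37 (adjusted p = 0.37). Gtsf1, a Piwi partner, had 795 and 558 at E16.5, against 345 and 459 at E14.5 (adjusted p = 0.131), with a change of 0.72 that was -0.07 when probe sets prone to cross-hybridisation were left out. Stk31, a germ cell kinase-like protein, had 980.1 and 696 at E16.5, against 614 and 635 at E14.5 (adjusted p = 0.324). Changes of germ cell genes thus lay on both sides of 0, from -3.85 for Dppa5a to 3.20 for Tdrd9. Whether the share of germ cells differed between the stages was not tested.

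RefSeq windows were found for 7 of the 9 genes of this list that rose, and 3 are printed because they hold CACGTG, the letters of an E-box. Tdrd9 is at chr12:111971309-111971608 on the plus strand, Mael at chr1:166238695-166238994 on the minus strand and Mov10l1 at chr15:88982744-88983043 on the plus strand; capitals mark CACGTG, which reads the same on both strands.
Tdrd9: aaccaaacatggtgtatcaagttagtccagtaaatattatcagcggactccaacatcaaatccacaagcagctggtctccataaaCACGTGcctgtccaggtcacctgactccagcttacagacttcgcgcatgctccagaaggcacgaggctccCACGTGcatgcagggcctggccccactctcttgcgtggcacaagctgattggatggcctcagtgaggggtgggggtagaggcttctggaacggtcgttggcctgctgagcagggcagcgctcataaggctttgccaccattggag
Mael: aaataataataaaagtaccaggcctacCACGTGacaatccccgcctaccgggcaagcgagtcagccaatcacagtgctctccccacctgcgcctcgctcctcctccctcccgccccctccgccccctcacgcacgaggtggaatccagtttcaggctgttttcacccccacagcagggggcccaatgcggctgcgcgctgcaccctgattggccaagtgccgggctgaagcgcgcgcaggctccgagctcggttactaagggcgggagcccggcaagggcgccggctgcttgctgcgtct
Mov10l1: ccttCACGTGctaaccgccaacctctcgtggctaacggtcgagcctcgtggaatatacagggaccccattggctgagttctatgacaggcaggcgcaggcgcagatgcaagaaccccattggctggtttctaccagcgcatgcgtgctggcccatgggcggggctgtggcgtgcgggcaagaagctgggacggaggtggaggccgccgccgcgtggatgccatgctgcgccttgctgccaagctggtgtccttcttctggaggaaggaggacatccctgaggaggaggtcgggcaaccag
CACGTG was found for 5 of the 7 genes (Ddx25, Mael, Mov10l1, Slc25a31 and Tdrd9), beside 8.09% of all genes with a window and 12.1% of tested genes. By windows these were 5 of 10, beside 7.15% of all windows and 10.1% of those of tested genes. CCAAT matched 4 of the 7, beside 43.3% of tested genes, the TATA box letters matched 2, the SOX letters matched 1, and both octamer motifs and the SF-1 letters matched 0. The printed windows were chosen after these matches were seen.

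Of 12 tested genes of DNA methylation and demethylation, Dnmt3l rose (8.33%, beside 7.70% of all tested genes) and Hells fell (8.33%, beside 3.12%). The list's median was 0.01. Dnmt3l, the cofactor that activates the de novo DNA methyltransferases in male germ cells, had 353 and 364 at E16.5, against 74.1 and 48.2 at E14.5 (change 2.30, SE 0.32, adjusted p = 0.000933). Dnmt3a, a de novo methyltransferase, had 575 and 826 at E16.5, against 359.8 and 570.5 at E14.5 (change 0.59, adjusted p = 0.164). Hells, a chromatin remodeller that aids methylation and is high in dividing cells, fell, with 604 and 607 at E16.5, against 1045 and 1104 at E14.5 (change -0.81, adjusted p = 0.00877), a call lost when either E16.5 array was left out and with median centring. Kdm1b, a histone H3K4 demethylase known for the setting of maternal imprints in oocytes, was among the largest rises, with 935 and 1066 at E16.5, against 106 and 156 at E14.5 (change 2.81, SE 0.21, adjusted p = 4.3e-06). Its step to E16.5 differed from the step before by 2.77 (adjusted p = 0.00236) and from the step after by 3.19 (adjusted p = 0.00179). Nxf2, an X-linked mRNA export factor of germ cells, had 869.5 and 502 at E16.5, against 121 and 196 at E14.5 (change 1.99, adjusted p = 0.00481).

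**Figure D3:**
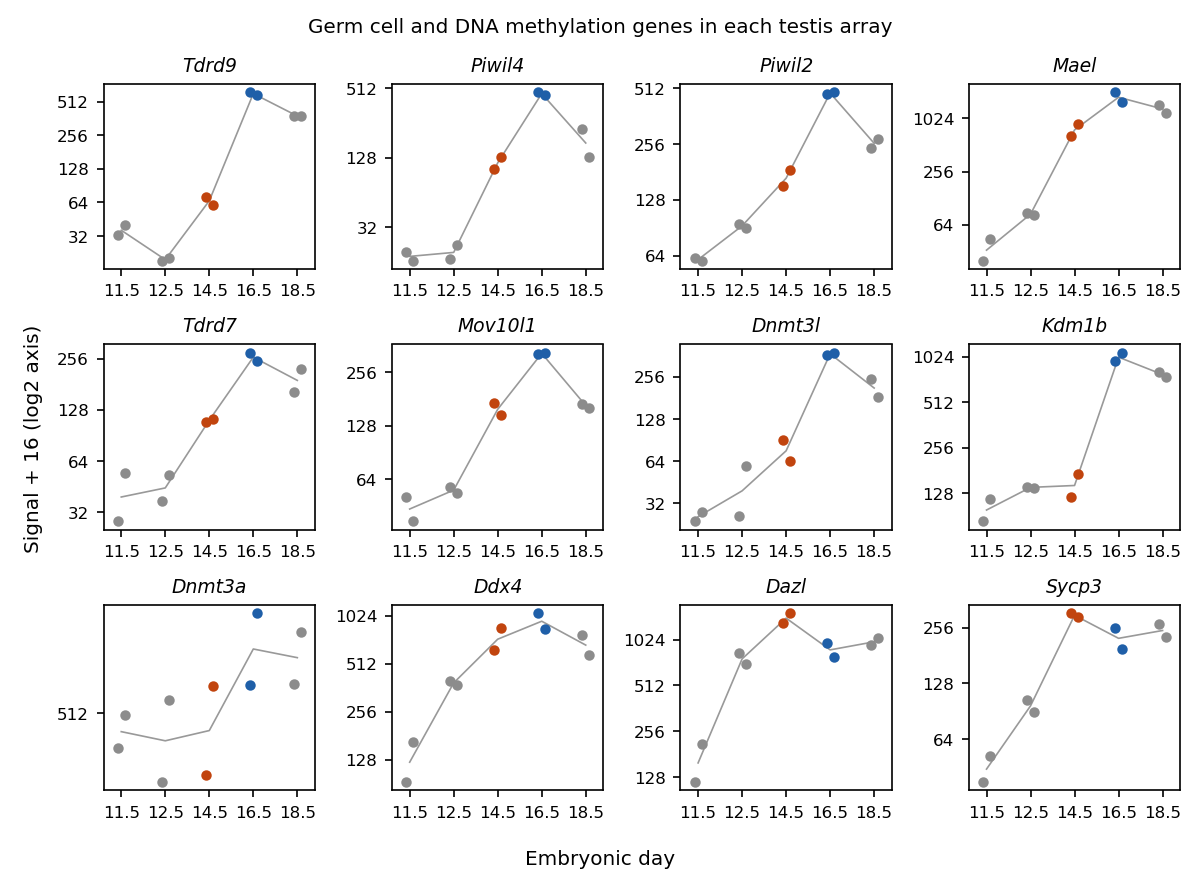
Signal + 16 on a log2 axis for 12 germ cell, DNA methylation and chromatin genes in each array, against embryonic day; E16.5 arrays are blue, E14.5 arrays orange-red, other stages grey, and the line joins the stage means on the log2 scale. Tdrd9, Piwil4, Piwil2, Dnmt3l and Kdm1b are highest at E16.5, while Dazl and Sycp3 are not higher at E16.5 than at E14.5.

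Spermatogonial and meiotic genes gave mixed changes, where 7.70% of all tested genes rose and 3.12% fell. Of 7 tested genes of spermatogonial stem cells, Sohlh1, a helix-loop-helix factor of spermatogonia, rose, with 159 and 186 at E16.5, against 50.6 and 66.3 at E14.5 (change 1.34, adjusted p = 0.0053), a call lost without the first E14.5 or the second E16.5 array. Its relative Sohlh2 fell, with 32.3 and 59.9 at E16.5, against 159.8 and 133 at E14.5 (change -1.42, adjusted p = 0.00408). Id4, an inhibitor of helix-loop-helix factors, fell, with 100.5 and 95.1 at E16.5, against 280.4 and 317 at E14.5 (change -1.46, adjusted p = 0.000313). Upp1, a uridine phosphorylase, had 31.6 and 41.3 at E16.5, against 147 and 135 at E14.5 (change -1.59, adjusted p = 0.00133), after a rise of 1.62 from E12.5. Among 14 tested meiosis genes, 2 rose (14.3%) and 1 fell (7.14%), with a median of -0.02. Tex12 and Stag3, parts of the synaptonemal complex and of meiotic cohesin, rose by 1.10 and 0.89 (adjusted p = 0.00326 and 0.0111), and the meiotic cohesin gene Smc1b fell (change -1.0, adjusted p = 0.0226). Stag3 lost its call without the second E14.5 array or either E16.5 array, and Smc1b without the first E14.5 array or either E16.5 array, and 2 meiosis genes fell when either E11.5 array was left out. Sycp3, an axis protein of meiotic chromosomes, had 239 and 182 at E16.5, against 289.8 and 276 at E14.5 (adjusted p = 0.212).

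Few cell cycle genes passed the test. Among 24 tested S phase genes limma called 0, with a median of -0.23, and 7 had an unadjusted p under 0.05. Of 26 tested G2 and M phase genes 1 fell (3.85%, beside 3.12% of all tested genes), with a median of -0.20. With arrays centred on their median these medians were 0.01 and 0.04, beside 0.29 over all tested genes. Their sign thus depended on scaling, while both lists lay below the median of all tested genes in either setting (0.05 in the main one). Pcna, the sliding clamp of DNA replication, had 2874 and 2159 at E16.5, against 4012 and 3705 at E14.5 (change -0.63, adjusted p = 0.0523). Mki67, a marker of dividing cells, had 1426 and 1283 at E16.5, against 1334 and 1441 at E14.5 (change -0.03, adjusted p = 0.921), with a sign that turned under median centring. Ttk, a mitotic checkpoint kinase, fell by 0.72 (adjusted p = 0.0174), a call lost without the first E14.5 array or either E16.5 array, and 3 genes of the list fell when either E11.5 array was left out. Genes of G1 arrest and D-type cyclins gave 3 rises (23.1%, beside 7.70% of all tested genes) and 1 fall among 13 tested. The rises were those of Cdkn2c, Ccnd2 and Rbl2, and their count was 0 without the second E16.5 array and 1 without the first E14.5 array. The fall, of Cdkn1c, was also lost without the second E16.5 array. Cdkn2c, an inhibitor of cyclin D kinases, had 227 and 252 at E16.5, against 122 and 88.0 at E14.5 (change 1.09, adjusted p = 0.00581). Ccnd2, a D-type cyclin, had 1367 and 1794 at E16.5, against 615 and 874 at E14.5 (change 1.08, adjusted p = 0.0105).

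Growth genes under imprinting fell in part. Of 17 tested, 3 fell (17.6%, beside 3.12% of all tested genes) and 0 rose, and the median was -0.08. Igf2, a fetal growth factor, had 1932 and 2417 at E16.5, against 3594 and 4112 at E14.5 (change -0.83, adjusted p = 0.00789). Cdkn1c, a cell cycle inhibitor, had 539 and 418 at E16.5, against 890.0 and 1002 at E14.5 (change -0.97, adjusted p = 0.00593), and Nnat, a membrane proteolipid, fell by 0.93 (adjusted p = 0.0213). All 3 falls lost their call with median centring. Nnat also lost it without any one of the 4 arrays, Igf2 without the first E16.5 array and Cdkn1c without the second. Dlk1, another imprinted fetal gene, had 3223 and 4473 at E16.5, against 2722 and 3703 at E14.5 (adjusted p = 0.563). The non-coding RNA Rian, from the Dlk1 domain, had 693 and 902 at E16.5, against 159 and 85.8 at E14.5 (change 2.60, adjusted p = 0.000224), but its probe sets disagreed, with changes of 1.16, 0.09 and -0.65 for the others, and the call was lost with their mean (0.80). Snhg14, the host of imprinted small nucleolar RNAs, had 64.7 and 47.5 at E16.5, against 293 and 168 at E14.5 (change -1.74, adjusted p = 0.00203). Among 13 tested Hox genes limma called 0, and 3 had an unadjusted p under 0.05. Hoxc8, a patterning factor, had 229 and 162 at E16.5, against 278 and 395 at E14.5 (adjusted p = 0.0651).

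Other large falls came from genes outside these lists. Upk3b, a uroplakin known as a mesothelial marker, had 219 and 179.9 at E16.5, against 694 and 839 at E14.5 (change -1.86, adjusted p = 0.000374). Lrrn4, another mesothelial marker, had 37.6 and 43.1 at E16.5, against 206 and 162 at E14.5 (change -1.82, adjusted p = 0.000173). Myrf, a membrane-bound transcription factor, had 254 and 161 at E16.5, against 1055 and 654 at E14.5 (change -1.95, adjusted p = 0.000743). These 3 genes were lower on both E16.5 arrays. Emx2, a homeobox factor of the bipotential gonad list, had 156 and 133 at E16.5, against 315 and 442 at E14.5 (change -1.28, adjusted p = 0.0023), and Six4, a factor of early gonad growth, fell by 1.09 (adjusted p = 0.0136). Nr5a1 and Map3k4 were the members of the bipotential gonad list that rose. Its 12 tested genes gave 2 rises and 2 falls (16.7% each, beside 7.70% and 3.12% of all tested genes). Both rises were lost without the first E14.5 or the second E16.5 array, and 1 without the first E16.5 array, and 1 fall was counted without the first E14.5 array or either E16.5 array. Aldh1a2, which makes retinoic acid, had 286 and 241 at E16.5, against 602 and 715 at E14.5 (change -1.27, adjusted p = 0.00203). Mtm1, a phosphoinositide phosphatase, had 279 and 257 at E16.5, against 1195 and 1093 at E14.5 (change -2.03, adjusted p = 0.000215), though one of its dimmer probe sets gave 0.06.

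Sertoli cell genes rose in part. Of 32 listed, 30 had a probe set and 27 were tested, with 11 rises (40.7%, beside 7.70% of all tested genes), 2 falls (7.41%, beside 3.12%) and a median change of 0.74. The count of rises was between 5, without the second E16.5 array, and 11 when single arrays were left out, with 6 without the first E14.5 array. Both falls were lost without the second E16.5 array, and 1 without the first E14.5 array. Cst12, a cystatin, had 779 and 1117 at E16.5, against 114 and 114 at E14.5 (change 2.87, SE 0.20, adjusted p = 2.92e-06), and it rose again by 1.56 to E18.5 (adjusted p = 0.0249). Inha, the alpha subunit of inhibin, had 2327 and 3113 at E16.5, against 642 and 848 at E14.5 (change 1.85, SE 0.22, adjusted p = 0.000259). Inhbb, the inhibin and activin beta B subunit, had 826 and 968 at E16.5, against 313 and 429 at E14.5 (change 1.25, adjusted p = 0.00387). These secreted Sertoli products were thus higher on both E16.5 arrays. The other Inhbb probe set, with a mean signal of 191, gave 0.49, and the Inhbb call was lost with the mean of probe sets. Serpina5, a serine protease inhibitor, had 282 and 369 at E16.5, against 66.8 and 52.9 at E14.5 (change 2.16, adjusted p = 0.000404). Tesc, a calcium-binding protein of early testis, had 960.1 and 1046 at E16.5, against 267 and 338 at E14.5 (change 1.69, adjusted p = 0.000259).

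Clu, the secreted chaperone clusterin, had 3827 and 4537 at E16.5, against 1217 and 1951 at E14.5 (change 1.43, adjusted p = 0.00329), with changes of 1.32, 1.54 and 1.69 for its other probe sets. Dhh, the hedgehog ligand of Sertoli cells, had 564 and 628 at E16.5, against 227 and 265 at E14.5 (change 1.22, adjusted p = 0.00177). Its other probe set, with a mean signal of 51.6, gave 0.11, and the call was lost with the mean of probe sets. Nr5a1, the nuclear receptor SF-1 of the gonad and adrenal, had 602 and 1015 at E16.5, against 279 and 446 at E14.5 (change 1.11, adjusted p = 0.0255), and 0.08 when its probe sets were averaged. Sox9, which sets Sertoli fate, did not pass, with 92.7 and 116 at E16.5, against 60.3 and 93.2 at E14.5 (adjusted p = 0.297). Its change of 0.39 was -0.09 with the mean of probe sets. Amh, the hormone that removes the female ducts, had 248 and 449 at E16.5, against 49.3 and 209.7 at E14.5 (change 1.53, SE 0.54, adjusted p = 0.0851), and its arrays differed widely within each stage. The 2 members that fell were Fgf9, a growth factor of early testis, with 61.8 and 59.7 at E16.5, against 145 and 172 at E14.5 (change -1.18, adjusted p = 0.00584), and the homeobox gene Rhox5, with 206 and 191, against 657 and 476 (change -1.42, adjusted p = 0.0049).

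Genes of fetal Leydig cells and of steroid synthesis rose. Of 22 listed, 14 had a probe set and 13 were tested, and 8 of these rose (61.5%, beside 7.70% of all tested genes) while 0 fell, with a median of 0.90. The count of rises was between 4, without the second E16.5 array, and 10 when single arrays were left out. Star, which moves cholesterol into mitochondria, had 1253 and 1109.5 at E16.5, against 297 and 427 at E14.5 (change 1.68, SE 0.19, adjusted p = 0.000188). Scarb1, the receptor that takes up cholesterol from lipoprotein, had 2355 and 2734 at E16.5, against 749 and 905 at E14.5 (change 1.61, SE 0.17, adjusted p = 0.00016). Cyp11a1, the side chain cleavage enzyme, had 2871 and 3445 at E16.5, against 969.6 and 1508 at E14.5 (change 1.37, SE 0.21, adjusted p = 0.00167). In these 3 genes of cholesterol import and first conversion both E16.5 arrays were above both E14.5 arrays. The mean of the Cyp11a1 probe sets gave 0.16, since its 2 other probe sets were dim, at a mean of 34.9 and 27.4. Hsd17b1, a 17-beta-hydroxysteroid dehydrogenase that is known in fetal Sertoli cells, had 629 and 843 at E16.5, against 116 and 169.9 at E14.5 (change 2.25, SE 0.25, adjusted p = 0.000173).

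The androgen synthesis enzymes Cyp17a1, Hsd3b1 and Hsd17b3 did not pass, unlike Hsd17b1, though Cyp17a1 passed in 5 and Hsd17b3 in 6 of 22 alternative settings. Cyp17a1 had a change of 0.89 (SE 0.41, adjusted p = 0.186) after a rise of 6.38 between E12.5 and E14.5. Its step to E16.5 thus differed from the step before by -5.50 (adjusted p = 0.00236). Its E12.5 arrays, at 4.2 and 62.9, differed widely, and they enter the spread behind that SE. Hsd3b1 had 2905 and 2652 at E16.5, against 1962 and 2090.4 at E14.5 (change 0.45, adjusted p = 0.182). Hsd17b3, which completes testosterone synthesis in the testis, had 545 and 632 at E16.5, against 415 and 344 at E14.5 (change 0.61, adjusted p = 0.0715). Both E16.5 arrays were above both E14.5 arrays in each. Cyp21a1, a steroid 21-hydroxylase of the adrenal, rose, with 230.1 and 384 at E16.5, against 69.7 and 68.2 at E14.5 (change 1.88, adjusted p = 0.000376). It was the 1 of 3 tested adrenal-like genes that passed, beside 7.70% of all tested genes that rose. Insl3 and Lhcgr had no probe set of their own and were not analysed here.

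Of 20 tested enzymes of cholesterol synthesis 9 rose (45.0%, beside 7.70% of all tested genes) and 0 fell, with a median of 0.59. Dhcr7, the last enzyme of the pathway, had 786 and 915 at E16.5, against 209 and 341 at E14.5 (change 1.61, adjusted p = 0.000617). Ebp, a sterol isomerase, had 399.6 and 397 at E16.5, against 137 and 218 at E14.5 (change 1.13, adjusted p = 0.0063). Hmgcs1, an early enzyme, had 5051 and 4493 at E16.5, against 2882 and 2789.6 at E14.5 (change 0.75, adjusted p = 0.0218). The count of rises was 1 without the second E16.5 array, 4 without the first, 3 without the first E14.5 array and 3 with the actin covariate.

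Genes of the stroma gave further rises. Of 27 tested matrix genes 5 rose and 2 fell (7.41%), with a median of 0.47, and of 12 tested elastic fibre genes 4 rose (33.3%) and 0 fell, with a median of 0.46, where 7.70% of all tested genes rose and 3.12% fell. Itih5, a hyaluronan-binding inhibitor chain, had 1382 and 1627 at E16.5, against 323 and 350.3 at E14.5 (change 2.10, SE 0.19, adjusted p = 2.87e-05). Ogn, the proteoglycan osteoglycin, had 811 and 785 at E16.5, against 392 and 368 at E14.5 (change 1.04, adjusted p = 0.0138). Eln, the elastin gene, had 571 and 868 at E16.5, against 202 and 276 at E14.5 (change 1.51, adjusted p = 0.00926), and Efemp1, a fibulin, had 220.5 and 328, against 42.2 and 93.3 (change 1.84, adjusted p = 0.00173). The main collagen gene Col1a1 did not pass, with 1966 and 2545 at E16.5, against 1209 and 2120.5 at E14.5 (adjusted p = 0.293), nor did Dcn, the decorin gene, at 0.21 (adjusted p = 0.462), whose sign was negative with the mean of probe sets. Without the second E16.5 array 1 matrix gene and 1 elastic fibre gene rose, and without the first E14.5 array 2 of each did. With either E11.5 array left out 8 matrix genes rose. The 2 matrix falls were lost without the first E14.5 array or either E16.5 array, and 1 without the second E14.5 array. Nfix, a nuclear factor I gene of later development, had 697 and 806 at E16.5, against 363 and 367 at E14.5 (change 1.01, adjusted p = 0.00262), the 1 of 4 tested genes of that family that passed, a call lost without the second E16.5 array. Among 7 tested smooth muscle genes limma called 0, and 1 had an unadjusted p under 0.05. Acta2, smooth muscle actin, had 3935 and 4083 at E16.5, against 4282 and 4567 at E14.5 (change -0.14, and 0.10 with median centring).

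**Figure D4:**
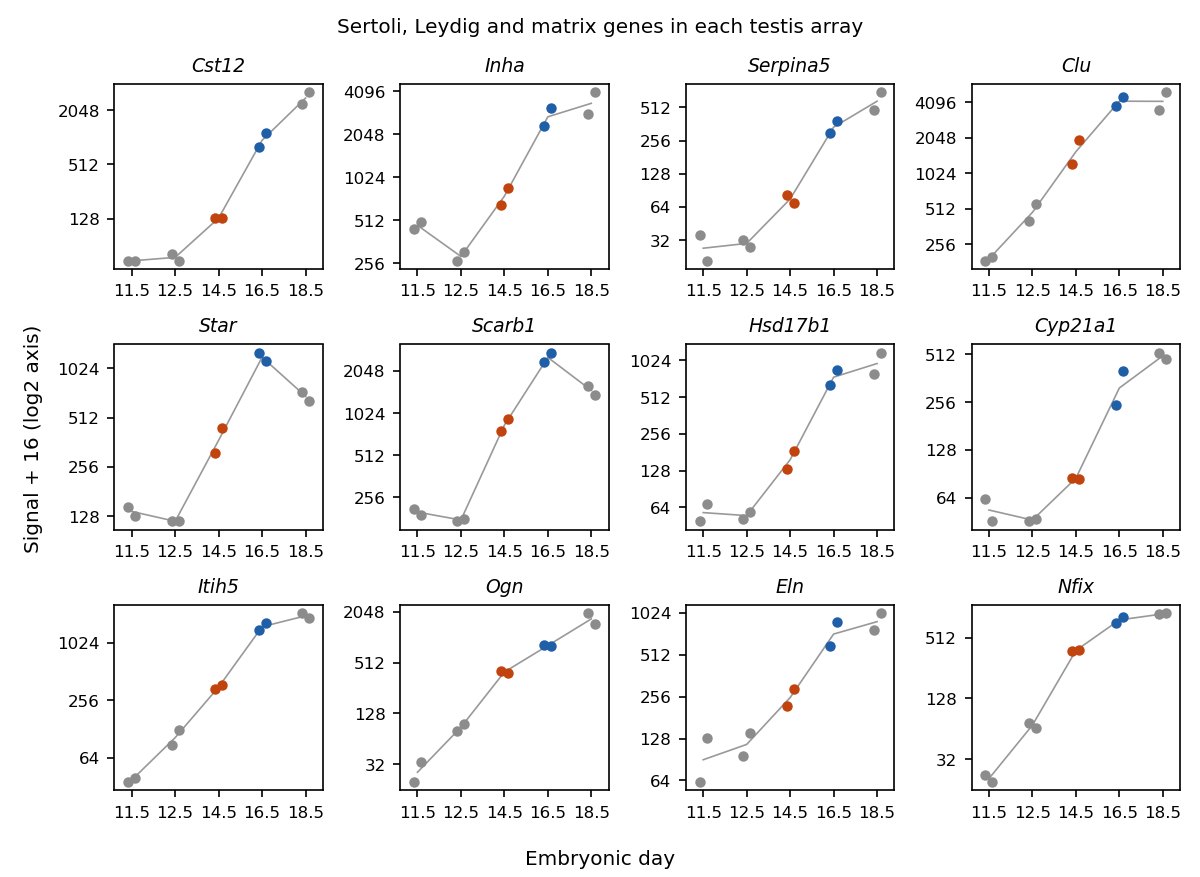
Signal + 16 on a log2 axis for 12 Sertoli, steroid and stromal genes in each array, against embryonic day; E16.5 arrays are blue, E14.5 arrays orange-red, other stages grey, and the line joins the stage means on the log2 scale. All 12 genes are higher on both E16.5 arrays than on both E14.5 arrays, and Cst12 is higher again at E18.5.

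Growth factor and detoxification genes added single large rises. Igf1, a growth factor, had 1153 and 1394 at E16.5, against 649 and 726 at E14.5 (change 0.87, adjusted p = 0.00877), while Igf2 fell. The Igf1 call was lost without the first E14.5 or the second E16.5 array and with the mean of probe sets, and another probe set had the opposite sign. Of 13 tested genes of the growth hormone and IGF axis 4 rose (30.8%, beside 7.70% of all tested genes) and Igf2 fell (7.69%, beside 3.12%). The rises were those of Htra1, Igfbp7, Igf1 and Igfbp6. The count of rises was 0 without the second E16.5 array, 1 without the first E14.5 array and 2 without the second E14.5 array. Gsta2 and Gstm1, glutathione transferases, had changes of 1.66 and 1.59 (adjusted p = 0.000173 and 0.000404), and Gstm1 had 2186 and 2129.9 at E16.5, against 599 and 827 at E14.5. The Gstm1 probe set can bind its near-identical relatives. In all, 4 of 23 tested detoxification genes rose (17.4%, beside 7.70% of all tested genes) and 1 fell (4.35%, beside 3.12%). The count of rises was lower without the first E14.5 array or either E16.5 array.

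The remaining large rises came from genes in none of these groups. Ccl17, a chemokine, had 416 and 521 at E16.5, against 69.9 and 73.5 at E14.5 (change 2.46, adjusted p = 1.9e-05). Adamts5, a matrix protease, had 684 and 705 at E16.5, against 134 and 147 at E14.5 (change 2.18, adjusted p = 2.42e-05). Unc13b, a vesicle priming protein, had 708 and 840.5 at E16.5, against 200.3 and 138 at E14.5 (change 2.11, adjusted p = 0.000107). Each was higher on both E16.5 arrays, and each kept its call in every alternative setting. Trp53inp2, an autophagy protein, had 314 and 424 at E16.5, against 24.8 and 122 at E14.5 (change 2.34, SE 0.41, adjusted p = 0.00378), so its E14.5 arrays differed widely. Maob, monoamine oxidase B, had 147 and 216 at E16.5, against 25.0 and 22.2 at E14.5 (change 2.30, adjusted p = 0.00261). Spock2, a matrix proteoglycan, had 354 and 488 at E16.5, against 70.2 and 94.6 at E14.5 (change 2.15, adjusted p = 0.000492), and Stfa2l1, of the stefin family, had 135 and 143, against 8.0 and 32.4 (change 2.19, adjusted p = 0.00261). Trp53inp2 and Maob lost their calls without the second E16.5 array. Myl7, an atrial myosin light chain, was the other large fall, with 65.8 and 50.4 at E16.5, against 275 and 342 at E14.5 (change -2.13, adjusted p = 0.000374).

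**Figure D5:**
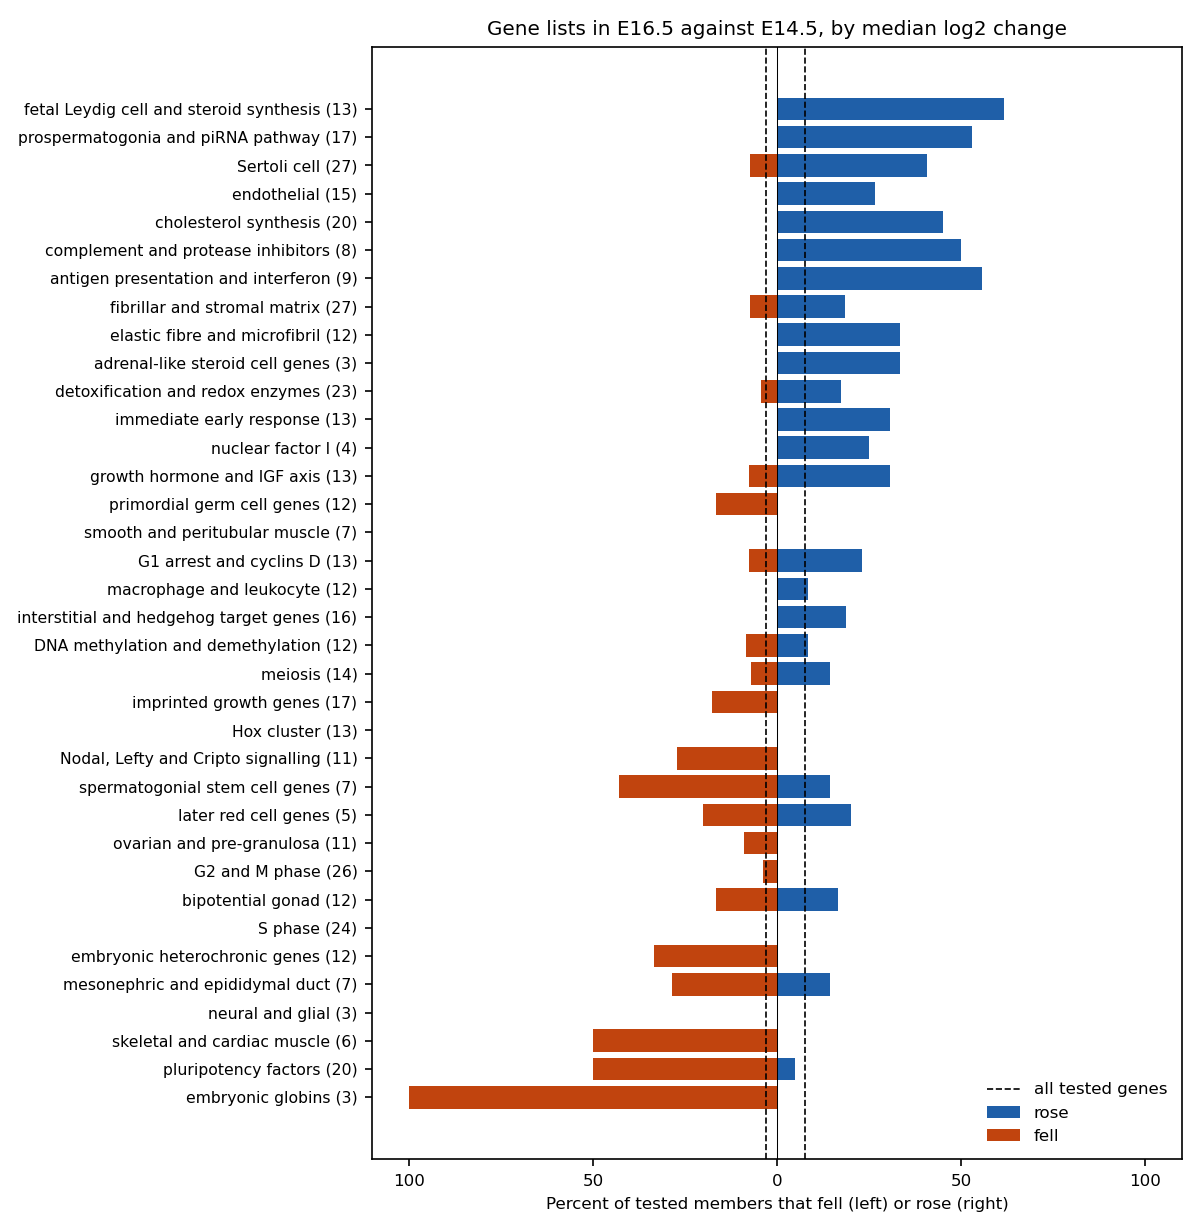
Percent of the tested members of each gene list that rose (blue, to the right) or fell (orange-red, to the left) in E16.5 against E14.5, ordered by the median log2 change of the list, with the number of tested members in brackets; dashed lines show 7.70% and 3.12%, the shares of all tested genes. Fetal Leydig cell genes (8 of 13) and prospermatogonia genes (9 of 17) lie at the top, and pluripotency factors (10 of 20 fell) and embryonic globins (3 of 3 fell) at the bottom.

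The lists were set beside the neighbouring steps, which share arrays with this one. In E14.5 against E12.5, 14 prospermatogonia genes, 11 Leydig genes and 6 Sertoli genes rose, beside 3.53% of all tested genes, where 9, 8 and 11 rose in E16.5 against E14.5. Of pluripotency factors 1 fell (1.73% of all tested genes did) and 1 rose in E14.5 against E12.5, where 10 fell and 1 rose in E16.5 against E14.5. In E18.5 against E16.5 no member of the pluripotency, prospermatogonia or Leydig lists passed, and Cst12 was the 1 Sertoli gene that rose, beside 0.00916% of all tested genes. The difference between steps was tested gene by gene: 98 genes (0.898%) differed between the steps to E16.5 and to E14.5, and 96 (0.879%) between the steps to E16.5 and to E18.5. Without the first E14.5 array the first count was 12, and without the second E16.5 array the second was 3.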

How the data were processed

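Per the labels' protocols, Trizol was used to extract total RNA of embryonic testis, and the single-cycle Affymetrix procedure gave biotin-labelled targets. The authors deposited 1 linear intensity per probe set and array (45101 probe sets, 0 missing), scaled so that the mean without the lowest and highest 2% was 125 on every array. Medians ranged from 35.2 to 57.7, so the deposited intensities had not been quantile normalized. The software is not given in the sources used here. Files of scanner settings gave array type, scan day and fluidics module, per the file headers.

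Gene symbols came from the platform annotation (34958 probe sets with 1 gene symbol, 932 with several, 9211 with none), with 34754 updated through Entrez numbers, 1 through its accession, and 203 left as they were. Those with several symbols were not used. Each of 18193 genes took the probe set with the highest mean, and 10916 at or above the 40th percentile (a signal of 49.1) were tested. From the deposited intensities log2(signal + 16) was computed and fitted with limma 3.58.1 in R 4.3.3, with stage means on all 10 arrays, since 2 arrays per stage leave little information on spread, and eBayes with a trend (5 residual and 8.59 prior degrees of freedom). The procedure was run on simulated arrays with independent, normally distributed values and no scan day or scaling effect. It recovered 84% of 100 genes changed by log2 1 and 100% of 100 changed by log2 2, and called 15 unchanged genes. Such data match the assumptions of the fit, so the result does not bear on scan day, scaling or the weight of single arrays. Precision is limited by the number of arrays. No label ties arrays of different stages to each other, so the stages were fitted as unpaired.

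The text names the 30 largest rises and falls, members of 36 gene lists (657 entries of 627 genes, 566 with a probe set and 442 tested), and the 5 largest differences between steps in each direction. Entries without a probe set were not analysed here. The comparison, the lists and the rule for named genes were chosen with earlier results of these data known, and so were the motifs. The alternatives changed the pseudocount (1 or 64), the filter, the scaling, the choice of probe set, the variance model, the arrays fitted, a replicate block and a covariate for the actin ratio.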

Additional observations from a re-analysis of the deposited data

Results flagged for a closer look

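The step to E16.5 differed from the step to E14.5 in 98 genes and from the step to E18.5 in 96 genes, by the contrast between steps in limma with adjustment over all tested genes. The genes below are those with the largest such differences in each direction, and no explanation for them was tested. The E14.5 arrays, alone on their scan day, enter both steps of the first contrast, so scan day and stage cannot be told apart there.

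Against the step to E14.5, Efhd2, a calcium-binding protein, had the largest positive difference, at 3.45 (adjusted p = 0.000222), since it changed by 1.82 to E16.5 and by -1.62 to E14.5. Its signals were 620.0 and 750.3 at E16.5, against 152 and 215 at E14.5, and its other probe set, with a mean signal of 299, gave 0.65. Its call in E16.5 against E14.5 was lost without cross-hybridising probe sets. Rhox6, a homeobox gene of the germ line, followed at 3.24 (adjusted p = 0.00831), because it had dropped by 3.11 to E14.5 and then had a change of 0.13. Rian had 3.01 (adjusted p = 0.018), Depp1, a gene induced by FOXO factors, 3.0 (adjusted p = 0.00201), and Vars2, a mitochondrial valyl-tRNA synthetase, 2.80 (adjusted p = 0.0228). In all of these but Rhox6 the gene rose to E16.5. Against E12.5, scanned on the same day, the E16.5 arrays had changes of 0.20 for Efhd2, 0.20 for Depp1, 0.38 for Vars2, 2.18 for Rian and -2.97 for Rhox6. In E16.5 against E14.5 another Vars2 probe set, with a mean signal of 63.5, gave 0.14, and another Depp1 probe set gave 0.84.

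The largest negative differences were those of Cyp17a1 (-5.50, adjusted p = 0.00236), Hbb-y (-5.20, adjusted p = 0.000339), Cyp11a1 (-4.52, adjusted p = 7.77e-05), Dppa3 (-4.32, adjusted p = 0.000498) and Hsd3b1 (-3.83, adjusted p = 0.000222). The 3 steroid genes had large rises to E14.5, of 6.38 for Cyp17a1, 5.88 for Cyp11a1 and 4.29 for Hsd3b1, and smaller changes to E16.5, of 0.89, 1.37 and 0.45. Hbb-y and Dppa3 instead had changes of -0.25 and 0.79 to E14.5 and fell to E16.5.

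Against the step to E18.5, the largest positive differences were those of Tdrd9 (3.86, adjusted p = 0.00026), Piwil4 (3.41, adjusted p = 0.00524), Nxf2 (3.29, adjusted p = 0.0281), Kdm1b (3.19, adjusted p = 0.00179) and Dnmt3l (3.11, adjusted p = 0.0207). Each of these germ cell or chromatin genes rose to E16.5 and had a negative change to E18.5, between -0.38 for Kdm1b and -1.42 for Piwil4. The largest negative differences were those of Hbb-y (-3.58, adjusted p = 0.0075), Dppa5a (-3.40, adjusted p = 0.00179), Hba-x (-3.32, adjusted p = 0.00945), Alb (-2.84, adjusted p = 0.049) and Sox2 (-2.84, adjusted p = 0.00718). Alb, the albumin gene of liver, had 108 and 44.5 at E16.5, against 252 and 201 at E14.5 (change -1.48, adjusted p = 0.0184) and a change of 1.36 to E18.5.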

How the results depend on the processing

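Of 140 called list members and large changes followed through 22 alternatives, 47 kept their call in every one in which they were tested, and 26 of the 30 largest did. With arrays centred on their median, 1782 genes changed in E16.5 against E14.5 (1668 rose, 114 fell), 1045 in E14.5 against E12.5 and 4 in E18.5 against E16.5, and 747 and 158 genes differed between the step to E16.5 and the steps to E14.5 and to E18.5. With the actin covariate these were 385 (287 and 98), 35 and 17, with 1 in E18.5 against E16.5. With the replicate number as a block, 1783 genes changed (540 fell), 898 and 4 in the neighbouring steps, and 209 and 184 differed between steps. The arrays were taken as unpaired: no label ties same-numbered arrays, and the replicate differences of 2 stages correlated between 0.00444 and 0.366, over 0.1 in 6 of 10 pairs of stages (0.163 for E16.5 with E14.5) but not in all. The mean of probe sets gave 521 rises. The 60th percentile filter gave 197 falls, 2 falls of pluripotency factors, 365 calls in E14.5 against E12.5, 5 in E18.5 against E16.5 and 45 differences from the step to E14.5. A pseudocount of 1 gave 49 and 51 differences, no filter 49 and 42, quantile normalization 178 of the first kind. Fits to the compared arrays gave 158 calls in E12.5 against E11.5. In E18.5 against E16.5 the count was 13 with a pseudocount of 64, 0 without a filter or a trend, 4 with the mean of probe sets and 5 without cross-hybridising probe sets or with the compared arrays. Leaving out single arrays gave 168 to 1436 changes (122 to 990 rises, 46 to 447 falls), 6 to 11 pluripotency falls, 148 to 368 and 183 to 838 in the 2 earlier steps, 0 to 4 in the later, 1204 to 3299 in E16.5 against E12.5, and 12 to 238 and 3 to 127 differences between steps; the lone array of a stage was assumed to vary like the others. Changes of sign were 0.10 for Acta2, 0.092 for Cst9, 0.21 for Mki67, 0.23 for Utf1 and 0.19 for Dppa4 with median centring, 0.068 for Utf1 and 0.0039 for Dppa4 with the actin covariate, -0.050 for Dcn, -0.094 for Sox9 and -0.22 for Ptch1 with the mean of probe sets, and -0.071 for Gtsf1 and -0.29 for Hbb-b2 without cross-hybridising probe sets. Without single arrays the ranges were -0.36 to 0.25 for Dppa4, -0.11 to 0.041 for Mki67, -0.15 to 0.41 for Rhox6 and -0.22 to 0.19 for Utf1. The causes were not tested. Of 145 called genes, 53 had another probe set above the filter, of opposite sign in 8 (Cxcl12, H2-K1, Hsd17b7, Igf1, Mtm1, Pdgfra, Ptch1 and Rian).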

Other observations

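Genes of vessels and of immune recognition gave further rises. Of 15 tested endothelial genes 4 rose and 0 fell, with a median of 0.60, beside 7.70% of all tested genes that rose, 3.12% that fell and a median of 0.05. Sox18, a transcription factor of endothelium, had 171 and 177 at E16.5, against 56.2 and 60.2 at E14.5 (change 1.36, adjusted p = 0.00203), and Cdh5, the endothelial cadherin, had 184 and 369, against 85.7 and 58.7 (change 1.67, adjusted p = 0.00538). A dimmer Cdh5 probe set, with a mean signal of 42.1, gave -0.33, and the Cdh5 call was lost with the mean of probe sets. Pecam1, found on endothelium and on germ cells, had 147 and 199 at E16.5, against 72.5 and 104.7 at E14.5 (adjusted p = 0.0688). Signals summed over the endothelial list were 2162.8 and 2619 at E16.5, against 1644.9 and 1485.6 at E14.5. Of 9 tested genes of antigen presentation and interferon response 5 rose, among them H2-K1, a class I molecule, with 254 and 246 at E16.5, against 121 and 151 at E14.5 (change 0.82, adjusted p = 0.0132; another probe set had the opposite sign), and Ly6e with 811 and 1177, against 351 and 575 (change 1.09, adjusted p = 0.0129). For Ly6e a dimmer probe set, with a mean signal of 44.7, gave -0.36, and the call was lost with the mean of probe sets. Of 12 tested macrophage genes 1 rose, Lyz1, and Csf1r had 299 and 294 at E16.5, against 225 and 240.1 at E14.5 (adjusted p = 0.255). The endothelial count was 1 without the second E16.5 array, 2 without the first or without the second E14.5 array, and 7 without the first E11.5 array. The antigen presentation count was 0 without the second E16.5 array and between 1 and 3 without any other array of the E12.5 to E18.5 stages. The Lyz1 call was lost without the first E16.5 array, while the macrophage count was 2 without the second array of either stage.

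Genes of striated muscle fell, at 3 of 6 tested, with a median of -0.73. The counts in this paragraph stand beside 7.70% of all tested genes that rose and 3.12% that fell. Mylpf, a fast muscle light chain, had 78.8 and 58.6 at E16.5, against 200.5 and 173 at E14.5 (change -1.27, adjusted p = 0.00419), and Actc1, cardiac actin, had 88.9 and 76.2, against 259 and 230.4 (change -1.40, adjusted p = 0.00886). Summed over the list, signals were 738.5 and 692.2 at E16.5, against 1415.1 and 1440.9 at E14.5. The list's 3 calls were lost without the second E16.5 array, and 1 fall was counted without the first E14.5 array. The part of muscle tissue in these falls was not tested. Of 7 tested mesonephric duct genes 1 rose (Cited1) and 2 fell (Emx2 and Krt19), with Cited1 and Krt19 lost without the first E14.5 array or either E16.5 array, and Krt19 also without the second E14.5 array, and of 11 tested ovarian genes Rspo1, a Wnt activator, fell (change -0.83, adjusted p = 0.0105), a call lost without the first E14.5 or the second E16.5 array, and 2 ovarian genes fell when either E11.5 array was left out. Of 13 tested immediate early genes 4 rose, led by Egr1, with 470.0 and 725 at E16.5, against 147 and 169 at E14.5 (change 1.79, adjusted p = 0.00154). Klf4 was among the 4 and was already counted with the pluripotency factors. Of 8 tested complement and protease inhibitor genes 4 rose, among them Serpina5 and Itih5, already counted in the Sertoli and matrix lists. Without the second E16.5 array Egr1 was the 1 immediate early gene that rose, and 2 complement and protease inhibitor genes rose. Without the first E14.5 array 2 immediate early genes rose. Of 16 tested interstitial genes 3 rose, among them Cxcl12, a chemokine of stroma, with 2202 and 2458 at E16.5, against 1208 and 1258 at E14.5 (change 0.91, adjusted p = 0.00804). Another Cxcl12 probe set, with a mean signal of 873, gave -0.31, and Ptch1 was -0.22 with the mean of its probe sets. All 3 interstitial calls (Cxcl12, Ptch1 and Pdgfra) were lost without the second E16.5 array, and also without the first E14.5 array. Among 3 tested neural genes limma called 0, and 2 had an unadjusted p under 0.05.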
